A study of Mus musculus with 3 samples.

Results

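The 10 genes described here are 7 matrix metalloproteinases (Mmp2, Mmp3, Mmp8, Mmp9, Mmp10, Mmp13 and Mmp14) and 3 tissue inhibitors of metalloproteinases (Timp1, Timp2 and Timp3), found by symbol among the 31053 genes of the count matrix. All 10 symbols matched 1 gene each, and no member was removed for low counts. They were read in 3 single-cell RNA libraries (10x Chromium, counting the 3′ ends of transcripts) of the mouse anorectal junction, the distal colon together with the anus. Day 0 was untreated wild-type C57Bl/6 mice; the other libraries came from mice given 3% dextran sulfate sodium (DSS, a polymer that injures the colonic lining) in the drinking water for 6 days and dissected on day 7, when colitis was severe, or on day 42, after recovery. The mice were bought at 6 weeks of age, and each library is a single pool of tissue from 5 mice. One pooled library per day leaves no replicate, so no difference between days can be tested here and no p-value is given; each interval below covers counting error only. A difference between days may also come from the pool, the digestion or the dissection. The tissue was dissociated with trypsin, and dead cells were removed with an annexin V kit before the libraries were made, which limits which cells were caught.

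The libraries held 11037, 14376 and 11667 cells at days 0, 7 and 42, with medians of 5995, 6217.5 and 5708 unique molecular identifiers (UMIs, each marking 1 captured transcript) per cell. Cell types are the names deposited by the authors, 14 names over 29 clusters. The 6 fibroblast markers checked (Col1a1, Col1a2, Col3a1, Pdgfra, Dcn and Lum) summed to 27750, 27645 and 24812 UMIs per 1000000 in the cells named fibroblasts, and the 6 neutrophil markers to 247569 and 112351 in the cells named neutrophils at days 7 and 42; both lists were highest in those types. The number of cells caught differed between days: 1436, 316 and 222 fibroblasts, 5, 1513 and 448 neutrophils, and 3316, 9035 and 7970 keratinocytes. Few cell barcodes occurred in more than 1 library (44 in days 0 and 7, 40 in days 0 and 42, and 55 in days 7 and 42). Levels are given as CPM, the UMIs of the gene per 1000000 UMIs of the cell type in that library, with an exact Poisson 95% interval in parentheses.

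Matrix metalloproteinases are zinc enzymes that cut collagens and other proteins of the extracellular matrix, and most are made as inactive precursors that another protease must cut. Collagenases (the products of Mmp8 and Mmp13) cut fibrillar collagen, stromelysins (Mmp3 and Mmp10) have a broad range of substrates and can activate other precursors, and gelatinases (Mmp2 and Mmp9) cut denatured collagen and basement membrane. Mmp14 encodes a membrane-bound enzyme that activates the Mmp2 precursor, a step in which the Timp2 product takes part. The TIMP proteins bind the active site of these enzymes and block it; the Timp3 product stays bound to the matrix. In inflamed gut, stromal cells and infiltrating neutrophils are known sources of these enzymes.

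Mmp13 (chr9:7272514-7283331), Mmp3 (chr9:7445822-7455975), Mmp10 (chr9:7502352-7510240) and Mmp8 (chr9:7558456-7568485) lie on the plus strand of mouse chromosome 9, in a run of 10 Mmp genes that spans 427 kb (GENCODE annotation of GRCm38, the build that the submitters' notes call mm10). The other members lie apart: Mmp2 at chr8:92827291-92853420, Mmp9 at chr2:164940780-164955850, Mmp14 at chr14:54431612-54445364, Timp1 at chrX:20870166-20874735, Timp2 at chr11:118301069-118355740 on the minus strand and Timp3 at chr10:86300372-86349506. Timp1 and Timp3 overlap Syn1 and Syn3 on the opposite strand, and Timp2 overlaps Cep295nl on its own strand; those genes held 27, 677 and 84 UMIs in all, against 6992, 25376 and 18890 for Timp1, Timp3 and Timp2. Mmp3 and Mmp10 are close relatives, so their 3′ ends were compared: none of the 476 windows of 25 bases in the last 500 bases of the longest transcript of either gene occurred in a transcript of the other, of another member or of the other Mmp genes of the run.

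Mmp3, Mmp10 and Mmp13 were the members whose fibroblast levels differed most in CPM between days, so the 250 bases before their RefSeq starts are shown (RefSeq, GRCm38.p6, plus strand, 5′ to 3′), with those of Mmp8, a neighbour read mainly in neutrophils. Capitals mark each match to TGAGTCA, a sequence known to be bound by the AP-1 family of transcription factors, or to its reverse complement TGACTCA. The windows are chr9:7445572-7445821, chr9:7502092-7502341, chr9:7272264-7272513 and chr9:7558179-7558428.
Mmp3: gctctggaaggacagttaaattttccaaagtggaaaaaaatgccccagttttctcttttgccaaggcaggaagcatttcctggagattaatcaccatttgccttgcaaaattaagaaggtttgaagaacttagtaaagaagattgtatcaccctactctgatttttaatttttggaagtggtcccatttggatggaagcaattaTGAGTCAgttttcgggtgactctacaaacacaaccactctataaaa
Mmp10: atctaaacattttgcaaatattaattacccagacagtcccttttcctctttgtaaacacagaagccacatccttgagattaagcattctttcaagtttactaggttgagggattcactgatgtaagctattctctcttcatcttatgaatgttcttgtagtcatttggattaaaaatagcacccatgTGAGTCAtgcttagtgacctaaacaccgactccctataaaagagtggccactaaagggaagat
Mmp13: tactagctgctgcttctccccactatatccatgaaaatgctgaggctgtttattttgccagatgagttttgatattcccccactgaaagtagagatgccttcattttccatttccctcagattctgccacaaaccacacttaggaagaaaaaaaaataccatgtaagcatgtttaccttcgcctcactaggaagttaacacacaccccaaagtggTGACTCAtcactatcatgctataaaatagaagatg
Mmp8: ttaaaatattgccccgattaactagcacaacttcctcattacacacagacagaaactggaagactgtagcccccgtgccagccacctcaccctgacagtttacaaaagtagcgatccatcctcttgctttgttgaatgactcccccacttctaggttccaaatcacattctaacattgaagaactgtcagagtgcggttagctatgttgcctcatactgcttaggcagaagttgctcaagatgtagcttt
The match begins 46 bases before the start in Mmp3, 63 in Mmp10 and 35 in Mmp13, and there is none in the Mmp8 window. Of the 8 members with an entry in the promoter table, 3 hold a match; of all 32851 promoters of that length, 1466 (4.46%) do. A match is a description of the letters, not of binding, which was not measured. Mmp2 and Mmp9 are named only.

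At day 7, fibroblasts held high levels of Mmp3, Mmp10 and Mmp13, 3 genes that were near 0 in the untreated tissue. Mmp13, encoding collagenase-3, read 2.14 CPM (1.17 to 3.59) in fibroblasts at day 0, 2858 CPM (2781 to 2936) at day 7 and 128 CPM (103 to 158) at day 42. Mmp3, encoding stromelysin-1, read 14.2 CPM (11.5 to 17.4), 2103 CPM (2037 to 2170.5) and 153 CPM (125 to 185). Mmp10, encoding stromelysin-2, read 8.57 CPM (6.47 to 11.1), 972 CPM (927 to 1018) and 74.4 CPM (55.4 to 97.9). Day 7 was the highest day and day 0 the lowest for all 3 genes, and no 2 days had overlapping intervals.

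Between days 0 and 7 the fibroblast level of Mmp13 was 1334-fold (95% interval 794 to 2442) higher, that of Mmp3 148-fold (95% interval 120.3 to 184) and that of Mmp10 113-fold (95% interval 86.9 to 151). With 10 CPM added to both days, which damps low values, the log2 ratios were 7.88, 6.45 and 5.72. At day 42 the levels were still 59.96-fold (95% interval 33.9 to 114), 10.8-fold (95% interval 8.07 to 14.4) and 8.69-fold (95% interval 5.83 to 12.9) above those of day 0, in the same order, on 88, 105 and 51 UMIs. Day 42 UMIs lay in few cells, 17 fibroblasts for Mmp3 and 18 each for Mmp10 and Mmp13, and the 10 highest cells held 93.3%, 84.3% and 90.9% of them. With those 10 cells left out of each library, the day 42 against day 0 log2 ratios were 0.41 for Mmp3 and 0.60 for Mmp10, against 2.75 and 2.18 with all cells, and those of day 7 were 5.88 and 5.07. This takes a larger part of the cells with a UMI at day 42 than at day 0, where they numbered 33 and 37. Mmp13 lay in exactly 10 fibroblasts at day 0, so leaving out 10 empties that day by construction and no ratio is given.

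**Figure D1:**
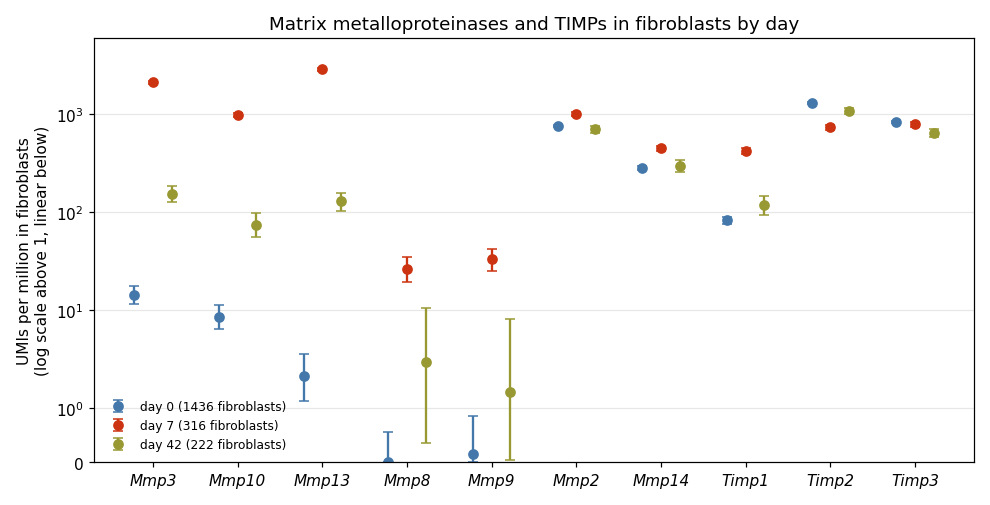
Level in CPM of each member in the cells named fibroblasts at day 0, day 7 and day 42 (logarithmic axis above 1, linear below); points are levels in 1 pooled library and bars are exact Poisson 95% intervals, for counting error only. Mmp3, Mmp10 and Mmp13 stand at 2103, 972 and 2858 CPM at day 7, against 14.2, 8.57 and 2.14 at day 0, while Mmp2, Mmp14, Timp2 and Timp3 lie within 2-fold of their day 0 level on both later days.

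Counted over all members, 6 of 10 were at least 2-fold higher in fibroblasts at day 7 than at day 0 (a log2 ratio of 1 or more, among genes with at least 5 CPM on either day) and 0 were at least 2-fold lower; of all 11188 genes measured in fibroblasts, 2.65% were that much higher and 2.25% that much lower. The median log2 ratio of the 10 members was 1.97, and that of all genes measured was -0.05. The 6 were Mmp3, Mmp10, Mmp13, Timp1, Mmp8 and Mmp9. The last pair stood on 48 and 60 UMIs, at 26.2 and 32.8 CPM, beside 21.1 and 27.1 CPM in T cells, where the 7 UMIs of Mmp8 lay in 1 cell. A UMI of Mmp8 was found in 3.48% of fibroblasts and 0.847% of T cells (0% and 0.926% after thinning each cell to 1000 UMIs), and of Mmp9 in 5.38% and 1.69% (1.77% and 0.926%), at median depths of 5015 and 2260 UMIs. They were found in only 11 and 17 fibroblasts. Without the 5% of cells with the highest doublet score their log2 ratios were 0.95 and 1.91, against 1.86 and 2.08 with all cells. With the 10 highest cells left out, which are nearly all or most of those with a UMI, they were 0.08 and 0.47, and 4 members were past the line. The neutrophil markers stood at 8.11 CPM in fibroblasts at day 0 and 3075 at day 7; their part in these 2 values was not tested. From day 0 to day 42, 3 of 8 measured members were at least 2-fold higher (Mmp3, Mmp10 and Mmp13; all genes 1.59%) and 0 lower (1.04%). From day 7 to day 42, 0 of 10 were at least 2-fold higher (1.77% of all genes) and the same 6 lower (2.27%). Of these 6, Mmp8 and Mmp9 were at -0.08 and -0.47 without the 10 highest cells, and Mmp8 at -0.71 without the cells of highest doublet score. At day 0 Mmp8 had 0 UMIs in fibroblasts and Mmp9 had 1, so day 7 was at least 57.2-fold higher for Mmp8, with day 0 set at a floor of 3 UMIs, and 214-fold (95% interval 37.03 to 8605) higher for Mmp9.

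Nearly all UMIs of these 3 genes came from fibroblasts at day 7, although fibroblasts gave 2.20% of that library's cells. Of the library's 4024 Mmp3 UMIs, 95.6% (94.9 to 96.2%, exact Clopper-Pearson 95% interval) lay in fibroblasts. The share was 93.4% of 1904 UMIs for Mmp10 and 95.7% of 5465 for Mmp13. Keratinocytes held most of the remainder, at 1.08, 0.694 and 1.43 CPM, levels at which free RNA in the suspension cannot be told apart from expression.

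At day 7 a UMI of Mmp3 was found in 107 of 316 fibroblasts (33.9%, 28.7 to 39.4%), of Mmp10 in 96 (30.4%) and of Mmp13 in 92 (29.1%). In T cells of that library the count was 0 of 118 for each gene, which allows a share of up to 3.08%; the median depths were 5015 UMIs in fibroblasts and 2260 in T cells. With every cell thinned to 1000 UMIs, which left out 33 of the fibroblasts, the shares were 22.6%, 19.1% and 19.4%, against 0.992%, 0.534% and 0.229% at day 0 and 5.91%, 4.43% and 5.42% at day 42 (125 and 19 fibroblasts left out). Mmp2, read in most fibroblasts, gave thinned shares of 48.9%, 57.6% and 40.9%.

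The UMIs were concentrated in a minority of fibroblasts. The 10 highest cells for each gene held 57.95% of the Mmp3 UMIs of day 7 fibroblasts, 51.5% of Mmp10 and 67.2% of Mmp13. A single cell reached 443 UMIs of Mmp3 and a single cell 686 of Mmp13, while the median cell with a UMI had 6 of either gene.

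The 3 genes were often found together in 1 fibroblast. At day 7, 179 of 316 fibroblasts had a UMI of none of them, 38 of 1, 40 of 2 and 59 of all 3 (18.7%, 14.5 to 23.4%). The 59 cells held 74.3% of the Mmp3 UMIs of fibroblasts, 87.3% of Mmp10 and 95.5% of Mmp13. Among cells with Mmp13, 88.04% also had Mmp10 and 72.8% Mmp3; among cells without it the shares were 6.696% and 17.9%. The 59 cells had a median of 3073 UMIs and the 179 cells with none of the 3 genes 5059. After thinning to 1000 UMIs, all 3 genes were found in 31 of 283 fibroblasts.

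At day 0, 0 of 1436 fibroblasts had all 3 genes and 3 had 2 of them; at day 42, 6 of 222 had all 3 and 9 had 2. Fibroblasts of day 0 with a UMI of 1 of the genes numbered 74. Of 33 cells with Mmp3, 6.06% also had Mmp10, against 2.49% of the cells without Mmp3, and 0 had Mmp13. The medians were 1 or 2 UMIs in the cells with a UMI.

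**Figure D2:**
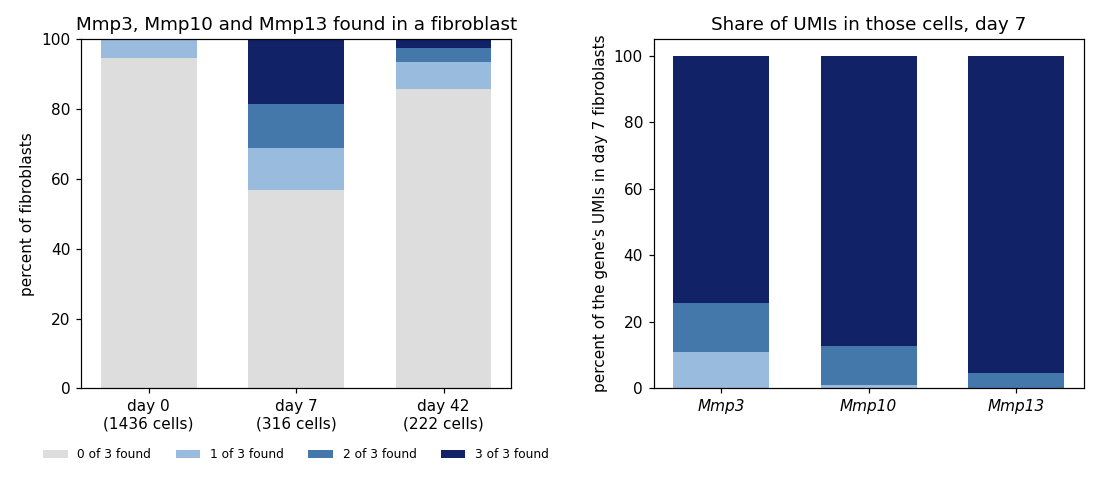
Left, percent of the fibroblasts of each day in which a UMI of 0, 1, 2 or 3 of the genes Mmp3, Mmp10 and Mmp13 was found; right, the percent of each gene's UMIs in day 7 fibroblasts that lay in those cells, in the same colours. All 3 genes were found in 0 of 1436 cells at day 0, 59 of 316 at day 7 and 6 of 222 at day 42, and the 59 cells held 95.5% of the Mmp13 UMIs.

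The other members were read on both sides of this division. The 99 fibroblasts of day 7 with 2 or 3 of the genes read 798 (729.6 to 872) CPM of Mmp2, and the 179 with none read 1074 (1009 to 1142). Mmp14 read 486 (433 to 544) and 418 (378 to 461) in the same order. Mmp9 read 69.2 (50.1 to 93.2) and 13.7 (7.304 to 23.5) and Mmp8 20.9 (11.1 to 35.8) and 31.7 (21.4 to 45.2), with neutrophil markers at 2075 and 3382 CPM. The inhibitors were lower in the 99 cells: Timp1 read 307 (265 to 354) against 471 (428 to 516), Timp2 533 (477 to 593) against 837 (779.5 to 897) and Timp3 457 (405 to 513) against 912 (852 to 975). The cells were divided by the counts of these genes and come from 1 library, so the comparison has no test.

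Markers of another cell type were higher at day 7 and in the cells with these genes. The 5 colonocyte markers (Krt20, Krt8, Epcam, Car1 and Slc26a3) summed to 206, 619 and 177 CPM in fibroblasts at days 0, 7 and 42, with 5, 5 and 4 of the 5 detected; at day 7 they read 1743 CPM in the 99 cells with 2 or 3 of the genes and 45.4 in the 179 with none. Fibroblast markers read 22448 and 28446 CPM in those cells, all 6 detected in both. Of these markers only Dcn was higher in the 99 cells, at 11572 against 9333 CPM. Lum stood on 4 UMIs there, at 6.44 against 657 CPM, and Pdgfra was found in 45.5% against 77.1% of cells. In the 221 fibroblasts of day 7 with no UMI of a colonocyte marker, Mmp3 read 2182 CPM (2101 to 2265), Mmp10 765 (718 to 815) and Mmp13 2472 (2385 to 2560.1). The share of cells with a UMI was lower in these 221, at 24.9%, 21.7% and 18.6%, against 33.9%, 30.4% and 29.1% of all 316. All 3 genes were found in 19 of the 221, against 59 of all 316. In colonocytes themselves the 3 genes read 1.16, 2.33 and 1.51 CPM.

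Macrophages were the other cell type with Mmp13, before injury. At day 0, Mmp13 read 60.98 CPM (39.1 to 90.7) in macrophages and other antigen-presenting cells, from 24 UMIs in 9 of 91 cells, which was 61.5% (44.6 to 76.6%) of the 39 Mmp13 UMIs of that library. At day 7 it read 9.801 CPM (5.22 to 16.8), from 2 of 278 cells. All 9 cells of day 0 held a UMI of a macrophage marker (C1qa, C1qb, Csf1r or Adgre1). Since they are fewer than 10 cells, leaving out the 10 highest removes the difference, and the 2 days rest on 11 cells in all.

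Mmp8, encoding neutrophil collagenase, and Mmp9, encoding gelatinase B, were read mainly in neutrophils. Only 5 neutrophils were caught at day 0, with 5 UMIs of Mmp9 and 0 of Mmp8, so no level is given for that day. At day 7 Mmp8 read 1243 CPM (1209.9 to 1278) in 1513 neutrophils, and at day 42 167 CPM (126 to 217) in 448. Mmp9 read 1225 CPM (1192 to 1259) and 774 CPM (683 to 875). The 2 genes were level with each other at day 7, and at day 42 Mmp9 was the higher; the intervals of the 2 days did not overlap for either.

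The day 42 level of Mmp8 was 0.134-fold (95% interval 0.101 to 0.174) that of day 7 (log2 ratio -2.83), and that of Mmp9 0.632-fold (95% interval 0.556 to 0.716) (log2 ratio -0.65). Among the 4 members measured in neutrophils on those days, 0 were at least 2-fold higher (4.7% of all genes) and 1, Mmp8, was at least 2-fold lower (1.73%). The scaling matters here: median-of-ratios size factors in place of totals move the scale by -0.44 on the log2 scale (less for low levels, given the 10 CPM added), which puts Mmp9 and Timp2 past the 2-fold line too and makes 3 members lower.

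The share of neutrophils with a UMI of Mmp8 was 66.95% (64.5 to 69.3%) at day 7 and 10.9% (8.202 to 14.2%) at day 42. For Mmp9 it was 86.8% (85.04 to 88.5%) and 41.1% (36.5 to 45.8%). Neutrophils of day 42 were shallow, with a median of 662 UMIs against 2585. Thinned to 1000 UMIs the shares were 50.9% and 22.2% for Mmp8, and 64.3% and 48.9% for Mmp9, but only 45 of the 448 cells of day 42 were deep enough to be kept. T cells, the free RNA reference, had a UMI of Mmp8 in 0.847% and 0% of cells on these days and of Mmp9 in 1.69% and 2.48%, at median depths of 2260 and 1393.

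Neutrophils held 80.2% of the Mmp8 UMIs and 82.02% of the Mmp9 UMIs of the day 7 library, and 71.8% and 75.8% at day 42. Keratinocytes held most of the rest (14.01% and 12.6% at day 7), at 7.11 and 6.15 CPM. At day 7 the sums of the 6 neutrophil markers in keratinocyte clusters 1, 17, 3, 8, 13, 5, 4, 9 and 12 were 282, 623, 939, 1077, 1119.6, 1507, 2709, 2943 and 6461 CPM. Mmp8 read 2.53, 2.26, 4.87, 5.74, 4.82, 1.74, 6.63, 17.2 and 36.8 CPM in the same order, so both were highest in cluster 12, and cluster 5 had less Mmp8 than clusters with lower sums. Colonocyte clusters 2 and 22 read 5.58 and 47.8 CPM of Mmp8 at sums of 2913 and 12966. These are the keratinocyte and colonocyte clusters with at least 50 cells. One of the 6 markers, Ly6g, was highest in colonocytes. Without the 5% of cells with the highest doublet score, neutrophils held 89.5% of Mmp8 and 91.7% of Mmp9 UMIs at day 7. At day 42 they then held 88.9% and 91.8%. With the filter on cells, which kept 15 neutrophils of day 42, keratinocytes held 78.3% and 72.1% on that day. The part of neutrophil RNA in the epithelial values was not tested. At day 0 the whole library held 1 UMI of Mmp8 and 16 of Mmp9.

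Macrophages also held Mmp8 at day 7. It read 115 CPM (97.1 to 134) there, with a UMI in 61 of 278 cells (21.9%, 17.2 to 27.3%), against 1 UMI in 91 cells at day 0. Of those 61 cells, 51 had a UMI of a macrophage marker (C1qa, C1qb, Csf1r or Adgre1) and 22 of a neutrophil marker (Csf3r, Retnlg or Cxcr2). The 6 neutrophil markers summed to 25.4 CPM in macrophages at day 0, with 3 of 6 at 0, and to 4671 at day 7, with all 6 detected; T cells read 4453 at day 7 with 21.1 CPM of Mmp8 (7 UMIs, all in 1 cell). The day 7 value of Mmp9 in macrophages, 100.3 CPM, rested on 1 cell with 108 of its 133 UMIs. Similarly, the 27 Mmp8 UMIs of muscle-like cells at day 7 were all in 1 cell.

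Of 9 members measured in macrophages, 4 were at least 2-fold higher at day 7 than at day 0 (Mmp8, Mmp9, Mmp14 and Timp1; 3.75% of all genes) and 2 at least 2-fold lower (Mmp13 and Timp2; 6.92%). Mmp9 and Mmp13 each lay in fewer than 10 cells per library, so leaving out the 10 highest empties them by construction; without the 5% of cells with the highest doublet score Mmp9 was at 0.64. Timp2 read 168 CPM (129.7 to 213) in macrophages at day 0 and 34.7 CPM (25.4 to 46.3) at day 7. Fibroblast markers were also lower in the same cells, at 638 CPM with all 6 detected at day 0 and 64.8 with 5 of 6 at day 7; their part in the Timp2 value was not tested.

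Mmp2, encoding gelatinase A, was the most even of the stromal enzymes. In fibroblasts it read 754 CPM (733 to 776) at day 0, 995 CPM (950.0 to 1042) at day 7 and 698 CPM (636 to 763) at day 42. Day 7 was the highest and its interval lay above the others, but the log2 ratio to day 0 was 0.40. Fibroblasts held 80.7%, 52.7% and 55.5% of the Mmp2 UMIs of the 3 libraries, and keratinocytes 13.1%, 39.99% and 40.6%.

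Within keratinocytes, the level of Mmp2 differed between clusters. Cluster 4 read 46.6, 43.8 and 40.5 CPM at days 0, 7 and 42, and cluster 8 27.4, 19.4 and 28.8, while cluster 5 read 2.24, 0.2904 and 0.968. Cluster 9 read 10.8, 8.47 and 11.9, and clusters 17 and 3 read 19.2 and 14.04 CPM at day 0. Cluster 12 read 13.6 at day 7 and 0 at day 42, when cluster 13 also read 0. Fibroblast markers summed to 274 and 240 CPM in clusters 17 and 3 at day 0, and to 193 in cluster 12 at day 7. At day 0 they read 48.7 in cluster 4, 81.5 in cluster 5 and 132 in cluster 9. Their part in the Mmp2 values was not tested. Over all keratinocytes Mmp2 was 23.5, 10.8 and 6.02 CPM, but the mix of clusters differed between libraries. With equal weight to the clusters, the day 42 against day 0 log2 ratio was -0.33, against -1.06 over all cells. In endothelial cells Mmp2 read 11.9 CPM (3.85 to 27.7) at day 0, on 5 UMIs, then 53.9 CPM (45.2 to 63.9) and 56.4 CPM (34.9 to 86.2); fibroblast markers in these cells read 109, 103 and 435 CPM on those days, with 4, 6 and 6 of 6 detected.

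Mmp14, the membrane-bound activator, was read in stromal, vessel, myeloid and epithelial cells. Fibroblasts were highest on each day, at 282 CPM (269.5 to 295), 446 CPM (416 to 478) and 296 CPM (257 to 339.9), among types with at least 50 cells. Vessel and myeloid cells stood next at day 7: endothelial cells went from 35.6 to 174 CPM, lymphatic cells from 44.1 to 170.1 and macrophages from 43.2 to 184. The differences were 4.89-fold (95% interval 2.93 to 8.81), 3.86-fold (95% interval 1.97 to 8.63) and 4.26-fold (95% interval 2.61 to 7.43) in that order. The day 7 intervals of the 3 types (158 to 191, 143 to 201 and 162 to 209) overlapped each other and none overlapped its day 0 interval. Neutrophils read 4.52 CPM and T cells 9.04.

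In keratinocytes Mmp14 read 47.01 CPM (44.7 to 49.4), 49.4 CPM (48.2 to 50.7) and 68.96 CPM (66.8 to 71.1), with a UMI in 34.1%, 36.1% and 34.02% of cells; T cells had one in 1.83%, 2.54% and 0.826%. Thinned to 1000 UMIs the keratinocyte shares were 5.42%, 4.401% and 6.600%, and those of T cells 0.513%, 0.926% and 1.11%. Clusters 1, 3 and 5 stood at 58.2, 65.7 and 76.9 CPM at day 7 and cluster 4 at 22.7. Keratinocytes gave 62.8% of the cells of day 7 and 68.3% of day 42, and held 76.99% and 88.7% of the Mmp14 UMIs at a level well under that of fibroblasts; at day 0 they held 35.4% and fibroblasts 40.9%.

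Timp1 was higher at day 7 than at day 0 in the 5 types that had at least 50 cells on both days and reached 5 CPM, namely fibroblasts, endothelial cells, lymphatic cells, macrophages and keratinocytes; colonocytes read 1.63 and 4.77 CPM. In fibroblasts it read 82.6 CPM (75.8 to 89.9) at day 0, 424 CPM (394 to 454) at day 7 and 117 CPM (92.6 to 145) at day 42, so day 7 was 5.13-fold (95% interval 4.59 to 5.73) above day 0. The share of fibroblasts with a UMI was 26.6%, 53.8% and 28.4%. Endothelial cells read 28.5, 125 and 56.4 CPM, lymphatic cells 4.895, 48.2 and 17.3 (1, 38 and 3 UMIs), and macrophages 17.8 and 131 at days 0 and 7. T cells held 0 UMIs of Timp1 on each day.

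In keratinocytes Timp1 read 3.79 CPM (3.17 to 4.51), 26.2 CPM (25.4 to 27.1) and 22.7 CPM (21.5 to 23.99): day 7 was 6.92-fold (95% interval 5.799 to 8.31) and day 42 5.99-fold (95% interval 4.996 to 7.23) above day 0, with log2 ratios of 1.39 and 1.25 once 10 CPM were added. Clusters 1, 3 and 12 held the higher levels at day 7. The 3 days read 12.98, 27.2 and 40.5 CPM in cluster 1 and 14.04, 49.8 and 33.95 in cluster 3 and 0, 37.8 and 19.2 in cluster 12 (1668 cells at day 7), while cluster 4 stayed at or under 1.53 CPM. Cluster 1 gave 443 of the 3316 keratinocytes at day 0, 563 of 9035 at day 7 and 3043 of 7970 at day 42, and cluster 3 gave 269, 1983 and 974. With equal weight to clusters the log2 ratios were 0.94 and 0.74, under the 2-fold line. Keratinocytes held 16.4%, 70.9% and 90.6% of the Timp1 UMIs of the libraries and fibroblasts 68.6%, 16.3% and 5.49%.

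Timp2 and Timp3 were not higher at day 7 in fibroblasts, unlike Timp1. Timp2 read 1287 CPM (1260.1 to 1315), 733 CPM (695 to 774) and 1069.7 CPM (994 to 1150) there, lowest at day 7 with a log2 ratio of -0.80 to day 0, inside the 2-fold line. It was 1043, 1093 and 806 CPM in lymphatic cells and 147, 179.7 and 325 in endothelial cells, where day 42 was the highest. Neutrophils held Timp2 too, at 264 CPM (249 to 280.0) at day 7 and 164 CPM (123 to 213) at day 42, with a UMI in 44.8% and 9.82% of cells, or 21.9% and 17.8% after thinning to 1000 UMIs; it was the only one of the 3 inhibitors above 5 CPM in them. T cells read 54.3, 60.3 and 130.4 CPM of Timp2 with wide intervals (36.6 to 77.5, 36.8 to 93.1 and 85.2 to 191), so for this gene they are no reference for free RNA. Red cells, at 1.19 CPM in 210 cells of day 7, were the lowest type with at least 50 cells on that day.

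Timp3 was highest in lymphatic cells. It read 3667 CPM (3409 to 3939), 3542 CPM (3412 to 3676) and 3433 CPM (3163 to 3720) in them, with a UMI in 98.4%, 96.8% and 96.4% of cells (94.7%, 93.3% and 94.3% after thinning). The 3 days overlapped. It was the highest level of any member in any type of at least 50 cells, on each day. Fibroblasts read 835, 783 and 646 CPM.

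In blood vessel endothelial cells Timp3 was lower after DSS, at 612 CPM (539.6 to 691), 189 CPM (172 to 207) and 290.1 CPM (238 to 350.2); day 7 was 0.309-fold (95% interval 0.265 to 0.361) that of day 0. Over the 7 members measured in endothelial cells between days 0 and 7, Timp3 was the 1 at least 2-fold lower (5.14% of all genes) and 5 were higher (Mmp2, Mmp14, Timp1, Mmp8 and Mmp9; 5.07%). The last pair read 21.1 and 10.9 CPM at day 7, in 15 and 10 cells, beside 2886 CPM of neutrophil markers, whose part was not tested. Both had 0 UMIs at day 0, and against a floor of 3 UMIs they were at least 2.96-fold and 1.54-fold higher; both 2-fold calls, made with 10 CPM added, depend on entering 0 UMIs as 0. Without the 5% of cells with the highest doublet score Mmp9 was at 0.84. With the 10 highest cells left out, Mmp8 was at 0.27, and Mmp9, which lay in 10 cells, was at 0 by construction. In lymphatic cells 3 of 7 were higher (Mmp14, Timp1 and Mmp9; 6.5%) and 0 lower (4.55%); Mmp9 stood on 14 UMIs in 5 cells against 0 at day 0 (at least 1.21-fold higher against the floor), was at 0.21 without the 5% of cells with the highest doublet score, and went with the neutrophil markers at 9.79 CPM at day 0 and 2700.4 at day 7.

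The epithelial levels of Timp3 were lower but spread over many cells. Colonocytes read 133 CPM (129 to 136), 64.2 CPM (58.95 to 69.8) and 50.2 CPM (45.8 to 54.8), and held 38.3% of the library's Timp3 UMIs at day 0, close to the 39.5% of fibroblasts. With 10 CPM added, no member passed the 2-fold line in colonocytes at day 7 (0 of 6 in either direction, with 3.48% of all genes higher and 2.14% lower). The nearest were Mmp9 at a log2 ratio of 0.97, Timp3 at -0.94 and Mmp8 at 0.90. With nothing added, Timp3 at day 7 was 0.483-fold (95% interval 0.442 to 0.528) its day 0 level, and Mmp8 and Mmp9, at 8.72 and 9.54 CPM against 0 UMIs, were at least 116-fold and 127-fold higher against the floor of 3 UMIs. At day 42 Timp3 passed the line, at a log2 ratio of -1.25 to day 0 (0.378-fold, 95% interval 0.344 to 0.414). It was the 1 lower of 4 members measured, and 0 were higher. Of all 9855 genes measured there, 38 were lower and 106 higher. Keratinocytes read 46.1 CPM (43.8 to 48.4), 16.3 CPM (15.6 to 16.98) and 41.1 CPM (39.5 to 42.8), lowest at day 7. Cluster 1 read 57.1, 12.2 and 67.02 CPM at days 0, 7 and 42 and cluster 3 read 57.97, 12.1 and 65.2. Cluster 17 instead read 179.6, 223 and 128, and cluster 12 read 44.4, 37.8 and 9.58, both lowest at day 42.

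Of 7 members measured in keratinocytes, 1 was at least 2-fold higher at day 7 (Timp1; 1.15% of all genes) and 1 lower (Timp3; 0.971%). Of 5 measured between days 0 and 42, 1 was higher (Timp1; 2.31%) and 1 lower (Mmp2; 1.99%). With equal weight to clusters none of these 4 passed the line, and Timp3 was at -0.50. The mean of CPM per cell put Timp3 at -0.67 and Mmp2 at -0.87.

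**Figure D3:**
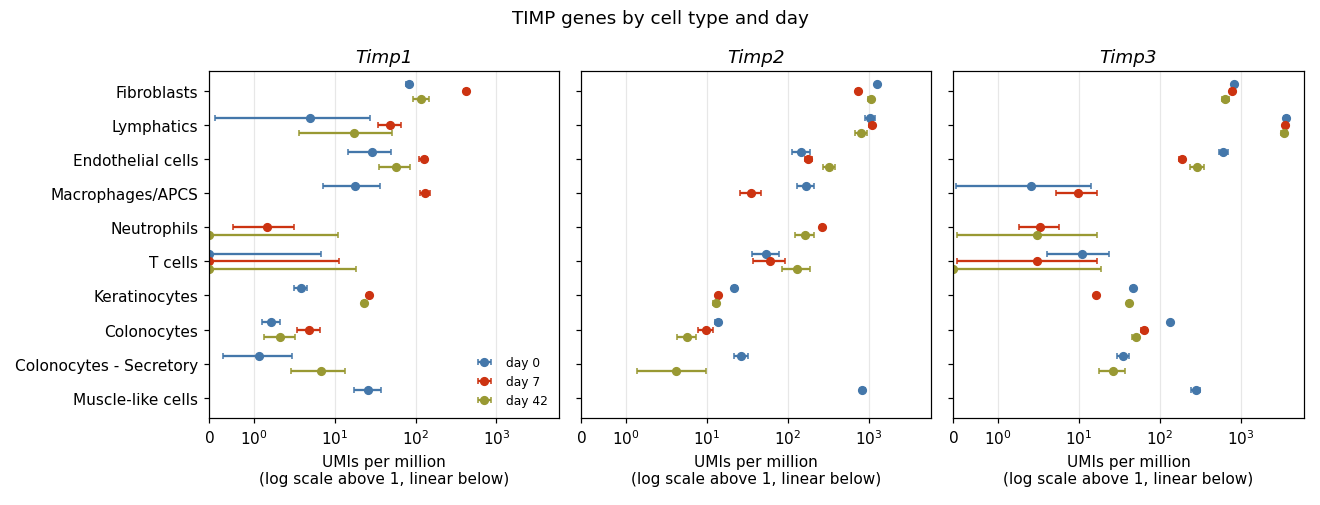
Level in CPM of Timp1, Timp2 and Timp3 in cell types with at least 50 cells on the day shown (logarithmic axis above 1, linear below); points are levels in 1 pooled library per day and bars are exact Poisson 95% intervals. Timp3 stands between 3433 and 3667 CPM in lymphatic cells on all 3 days, and Timp1 stands higher at day 7 than at day 0 in fibroblasts (424 against 82.6), endothelial cells, macrophages and keratinocytes.

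The cell type that held most UMIs of a member differed between days, as did the number of cells caught of each type. At day 0 fibroblasts were the main source of 7 of the 10 members, macrophages of Mmp13 and of the 1 UMI of Mmp8, and keratinocytes of Mmp9 with 8 of 16 UMIs. The intervals of the first and second source overlapped at day 0 for Timp3 (fibroblasts and colonocytes), Mmp13 (macrophages and fibroblasts) and Mmp9 (keratinocytes and neutrophils), and the 1 UMI of Mmp8 allows no order. At day 7 fibroblasts were the main source of 4 (Mmp2, Mmp3, Mmp10 and Mmp13), keratinocytes of 3 (Mmp14, Timp1 and Timp2), neutrophils of 2 (Mmp8 and Mmp9) and lymphatic cells of Timp3, with 37.3% of its UMIs. At day 42 fibroblasts were the main source of 4, keratinocytes of 4 (Mmp14, Timp1, Timp2 and Timp3) and neutrophils of 2. Some day 42 sources depend on the cells kept. A filter on cells (minimum 1000 UMIs and 500 genes, maximum 20% mitochondrial) left 15 of the 448 neutrophils. Keratinocytes then held most UMIs of Mmp8 (78.3%) and Mmp9 (72.1%). Without the 5% of cells with the highest doublet score, fibroblasts led Timp2 with 39.1%. For Timp2 at day 42 the shares of keratinocytes (38.6%, 36.5 to 40.9%) and fibroblasts (38.1%, 35.9 to 40.3%) overlapped. By level instead of summed UMIs, fibroblasts were the highest type for 6, 6 and 7 members at days 0, 7 and 42.

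**Figure D4:**
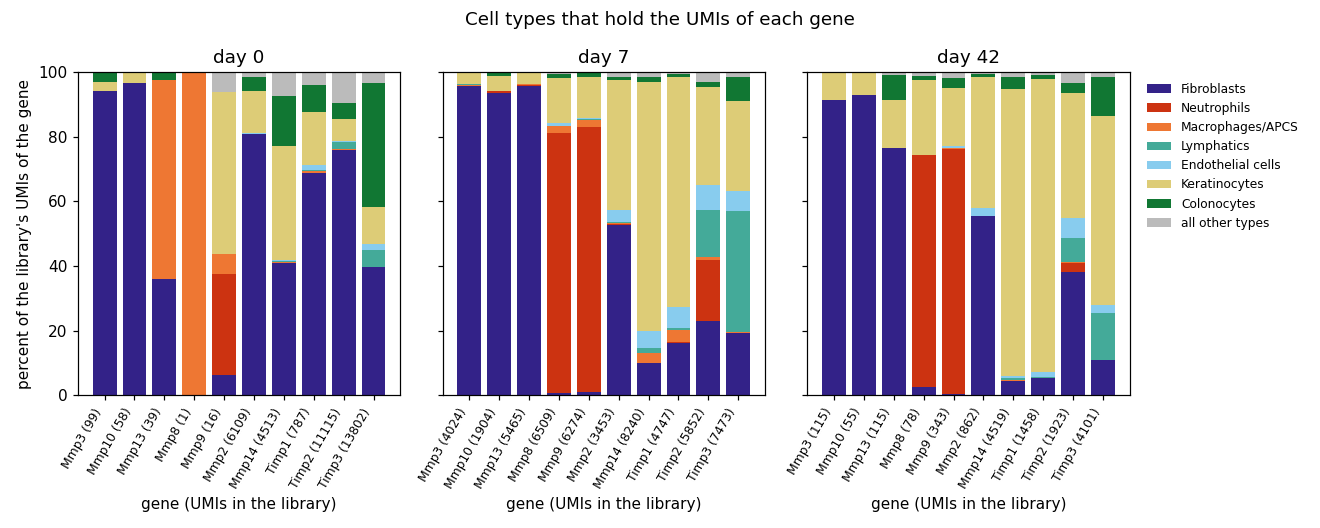
Share of each member's UMIs that lay in each cell type, for the library of each day; the number of UMIs of the gene in the library stands beside its name. Fibroblasts hold 95.6% of Mmp3, 93.4% of Mmp10 and 95.7% of Mmp13 at day 7, neutrophils 80.2% of Mmp8 and 82.02% of Mmp9, and the keratinocyte share of Mmp14 goes from 35.4% at day 0 to 88.7% at day 42.

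**Figure D5:**
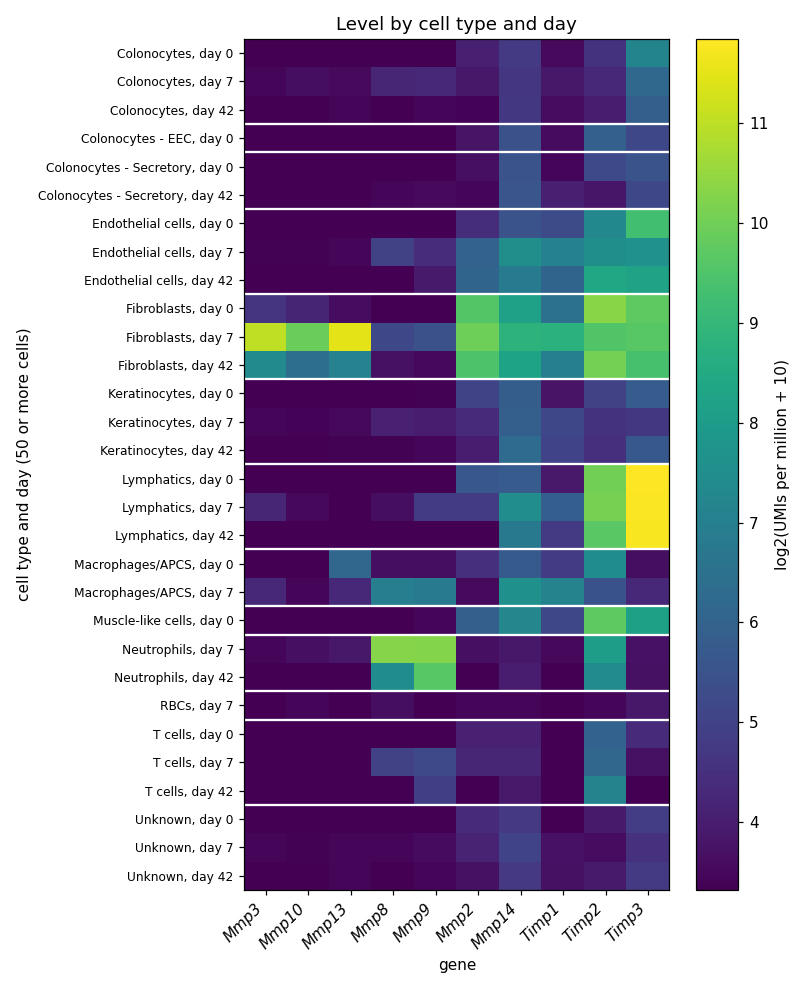
log2 of CPM plus 10 for each member (columns) in each cell type and day with at least 50 cells (rows); brighter is higher, and each row is 1 pooled library. The brightest rows are fibroblasts at day 7 for Mmp3, Mmp10 and Mmp13, neutrophils for Mmp8 and Mmp9, and lymphatic cells for Timp3.

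Of 16 other Mmp genes, 15 were in the matrix and 5 reached 20 CPM in a type with at least 50 cells. The 3 highest were Mmp19, at 137 CPM in macrophages at day 7, Mmp12, the macrophage elastase, at 117 in macrophages at day 0, and Mmp23, at 114 in fibroblasts at day 0. Of the 6 of these genes measured in fibroblasts between days 0 and 7, 0 were at least 2-fold higher and 0 lower, and the median log2 ratio was 0.03. Mmp12 read 46 UMIs in macrophages at day 0 and 4 at day 7, or 117 and 3.02 CPM; like the Mmp13 of these cells it was lower at day 7.

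Of 6 other protease inhibitors, 4 reached 20 CPM, led by Spink5, an inhibitor of skin serine proteases (470.3 CPM in keratinocytes at day 0), Timp4 (67.3 in lymphatic cells at day 7) and Spock1 (65.05 in enteroendocrine cells at day 0). None of the 2 measured in fibroblasts passed the 2-fold line at day 7. The plasminogen system, whose product plasmin can cut pro-MMPs, gave 6 of 7 genes at 20 CPM or more. Among its highest were Serpine2, a secreted inhibitor of serine proteases (699 CPM in fibroblasts at day 7), and Plaur, the urokinase receptor (559 in neutrophils at day 7). In fibroblasts 2 of its 6 measured genes were at least 2-fold higher at day 7: Serpine2, at 153 and 699 CPM, and Plau, the urokinase gene, at 28.3 and 94.5; 0 were lower. Of all genes measured in that comparison, 2.65% were higher and 2.25% lower.

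The ADAM and ADAMTS proteases, relatives that shed surface proteins or cut proteoglycans, gave 13 of 13 genes at 20 CPM or more. Adamts1 was highest at 588 CPM in endothelial cells at day 0, followed by Adam8 at 449.8 in neutrophils at day 42 and Adamts9 at 359.7 in endothelial cells at day 7. In fibroblasts 2 of 13 were at least 2-fold higher at day 7, Adam12 (2.14 to 41.5 CPM) and Adamts1 (98.1 to 224), and 1 was lower, Adam19 (80.5 to 28.4). The shares of all genes were again 2.65% and 2.25%, and the median log2 ratio of the list was 0.29, beside -0.05 for all genes measured.

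The genes most like each member were ranked by Pearson's r of log2(CPM + 10) over the 30 groups of type and day with at least 50 cells, among 11902 genes. The groups share libraries, so r is a description. Outside fibroblasts, Mmp3 and Mmp10 stood under 10 CPM in every group. Their r therefore rests mainly on fibroblasts at day 7 (2103 and 972 CPM) and day 42 (153 and 74.4 CPM). A gene high in the same groups gets a high r by construction. Mmp3 and Mmp10 had each other and the same leading genes: Serpina3m (r = 0.99 with both) and Cemip, which encodes a hyaluronan-binding protein (0.98 with both), with r = 0.99 between Mmp3 and Mmp10. Mmp13 was most like Mmp10 (0.94), Cemip (0.94) and Zfp469 (0.94). For Mmp9 the leaders were the myeloid receptor genes Trem1 (0.98), Clec4d (0.97) and Fpr1 (0.97), and for Mmp8 they were Wfdc21 (0.96), 2010005H15Rik (0.95) and Mmp9 (0.95).

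Mmp14 and Timp1 led each other's lists (r = 0.91), followed by Id3 (0.90) and Oaf (0.90) for Mmp14 and by Oaf (0.83) and Vcan (0.82) for Timp1. Mmp2 was nearest to Bean1, Col5a3 and Sdk2 (0.94 each). Timp2 was nearest to Tcp11l2 (0.93), Syne1 (0.93) and Rsu1 (0.90), and Timp3 to Tns2 (0.95), Lama4 (0.94), a laminin chain gene of vessel basement membrane, and Zcchc14 (0.94).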

How the data were processed

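The matrix deposited by the authors holds UMI counts per gene and cell for 3 libraries, each of 1 pool of 5 mice. Cell Ranger 3.0.2 and the mm10 build are named in the submitters' processing notes, with no role given. The annotation release, cell filters and the method of naming cells and clusters are not given in the sources used here. The deposited size factor of each cell is a ratio of its total to a typical total; it served only to check that the cells of the annotation and the matrix are in the same order. No cells were filtered (minimum 500 UMIs per cell) and doublets were not removed in the main values.

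UMIs were summed per authors' cell type, cluster and day and divided by that group's total. Log2 ratios between days carry 10 CPM added to both; a member was measured at 5 CPM or more on either day and counted as higher or lower at a log2 ratio of 1 or -1, in types with at least 50 cells on both days. Intervals are exact 95% Poisson or Clopper-Pearson. In log2 ratios 0 UMIs enter as 0 CPM, so such a ratio depends on the 10 CPM added and is no bound; a fold against 0 UMIs is given only as a bound, with the empty library set at a floor of 3 UMIs. Genes named in the report are the 10 members, the 3 highest of each of the 4 other protease or inhibitor lists with at least 20 CPM, the genes of those lists past the fold in fibroblasts, and the 3 nearest genes by r; the genes of the closing observations were chosen after their values were seen. A gene that this rule names is not reported here. The members and lists were chosen with earlier results of these data known. The ratio step was tested on simulated counts. Alternatives changed the cell filter, doublets (Scrublet), added CPM, scaling, averaging, top cells, cluster weights, totals and thinning (seed 7). The work used matplotlib 3.10.9, scanpy 1.11.5 (Scrublet included), scipy 1.17.1, numpy 2.4.6 and pandas 2.3.3 under Python 3.11.15.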

Additional observations from a re-analysis of the deposited data

Results flagged for a closer look

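Mmp13 went opposite ways in 2 cell types between day 0 and day 7: the log2 ratio was 7.88 in fibroblasts and -1.84 in macrophages, a difference of 9.73, with the macrophage side resting on 24 and 13 UMIs. Mmp2 at day 42 against day 0 was at 1.60 in endothelial cells (5 and 21 UMIs) and at -2.30 in lymphatic cells (8 and 0 UMIs), a difference of 3.90. The lymphatic value enters 0 UMIs as 0 CPM and depends on the 10 CPM added; with a floor of 3 UMIs that level was at least 2.27-fold lower, so 3.90 is no measured size. In cluster 16, which holds most endothelial cells, Mmp2 read 12.1 and 34.7 CPM at days 0 and 42. Fibroblast markers there read 109 and 362 CPM, and in lymphatic cells 29.4 and 74.9. The part of fibroblast RNA in the Mmp2 values was not tested. Timp2 at day 42 against day 0 was at 1.13 in T cells (30 and 26 UMIs) and at -1.36 in secretory colonocytes (93 and 5 UMIs), a difference of 2.49. Fibroblast markers in those secretory colonocytes read 121 and 5.04 CPM (6 and 3 of 6 detected) and in T cells 107 and 10.03 CPM (6 and 2 of 6); their part was not tested. With 1 library per day these differences were not tested.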

How the results depend on the processing

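No paired analysis was possible because each day has 1 library. Of the 28 counts that differed by over 1.5 times under an alternative, most were counts near 0. In colonocytes, the count of members higher at day 7 was 1 with the filter on cells or size factors, 2 with 1 CPM added, with the mean of CPM per cell or with totals without mitochondrial and ribosomal genes, and the count lower was 1 with 1 CPM added, the mean of CPM per cell, those totals, equal weight to clusters or without the 10 cells with most UMIs (main value 0 for both). In keratinocytes at day 7 the count higher (1) became 3 with 1 CPM added or the mean of CPM per cell, 2 with those totals and 0 with equal weight to clusters, and the count lower (1) became 2 with 1 CPM added and 0 with the mean of CPM per cell or equal weight; at day 42 the count higher (1) became 0 with equal weight and the count lower (1) became 0 with equal weight or the mean of CPM per cell. Without the 10 cells with most UMIs, the members higher in endothelial cells at day 7 went from 5 to 3, those lower in macrophages from 2 to 1 (by construction, as Mmp13 lay in under 10 cells; in endothelial cells Mmp9 lay in 10), those higher in fibroblasts at day 42 against day 0 from 3 to 1 (Mmp13, whose day 0 cells are then all left out), and those lower in neutrophils at day 42 from 1 to 2 (3 with size factors). The mean of CPM per cell made 1 member lower in fibroblasts at day 7, and 1 CPM added made 1 lower in lymphatic cells, from 0 in each. By highest level in place of summed UMIs, fibroblasts led 7 members at day 42 in place of 4. The cause was not tested beyond what each construction shows. No ratio past the fold reversed its sign; 133 counts stayed within 1.5 times, and of the values of single members 502 stayed within counting error and 177 moved. Size factors moved the scale between libraries, on the log2 scale, by 0.15 in colonocytes and endothelial cells, 0.10 in keratinocytes and 0.11 in lymphatic cells at day 7, by 0.11 in keratinocytes at day 42 against day 0; ratios of low levels moved less because of the 10 CPM added. An alternative chosen after seeing the data, fibroblasts with no UMI of a colonocyte marker, left 6 members higher at day 7, with log2 ratios of 6.55 for Mmp3, 5.38 for Mmp10 and 7.70 for Mmp13. Scrublet's own threshold marked 420, 0 and 267 cells at days 0, 7 and 42, so it did not work at day 7 and the top 5% by score were left out instead. A level on fewer than about 10 UMIs, as in lymphatic cells or macrophages at day 0, sets the limit of what these libraries can show.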

Other observations

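The day 7 fibroblasts that held 2 or 3 of Mmp3, Mmp10 and Mmp13 (99 cells) and those that held none (179 cells) differed in many other genes; the genes named here were chosen after their values were seen, and the cells come from 1 library, so these are descriptions. Higher in the 99 cells were Il1rl1, which encodes the interleukin 33 receptor (1943 against 11.6 CPM), the cytokine gene Il11 (2228 against 242), the activin gene Inhba (969 against 69.6), the BMP antagonist gene Grem1 (615 against 158), Wnt5a (888 against 228) and the ion channel gene Trpa1 (220.5 CPM against 0 UMIs). Il11 was found in 85.9% of the 99 cells and 17.9% of the 179, although the 99 were the shallower (medians of 2412 and 5059 UMIs). By ratio, most of the 12 genes highest in the 99 cells were genes of the gut epithelium, among them Car1 (818 against 6.33 CPM), Lypd8 (1929.7 against 42.2), Lgals4, Muc13, Muc3, Krt8 and Guca2a; Il1rl1 and Trpa1 were also among the 12, and Il11, Inhba, Grem1 and Wnt5a were not. Epcam read 269 against 17.9 CPM, and the part of epithelial RNA in these cells was not tested.

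Lower in the 99 cells were Mgp (30.6 against 4003 CPM), the proteoglycan gene Lum (6.44 against 657), the chemokine gene Cxcl12 (27.4 against 1386), the complement gene C3 (46.7 against 1306) and Pi16 (0 UMIs against 299 CPM). Collagen genes were lower as well: Col1a1 read 1957 and 2911 CPM, and was found in 65.7% and 92.2% of the cells. Dcn, another fibroblast gene, read 11572 and 9333 CPM and was found in 95.96% and 93.3%. 

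At day 42, 15 fibroblasts held 2 or 3 of the genes, 17 held 1 and 190 none. Il1rl1 read 882, 59.3 and 30.6 CPM in these groups and Wnt5a 641, 237 and 246, while Lum had 0 UMIs in the 15 cells and read 504 and 533 CPM in the others. Il11 and Inhba read highest in the 17 cells with 1 gene, at 128, 326 and 20.4 CPM and 545, 1009 and 249.5. The intervals of the 15 and the 17 cells overlapped for both genes, so no order between these groups can be read. The share of cells with a UMI ran the other way, at 33.3% and 17.6% for Il11 and 60% and 52.9% for Inhba. For Grem1 (1 UMI in the 15 cells) and Trpa1 (0 UMIs) no direction can be read at this depth. Of the colonocyte genes, Car1 was at 0 UMIs in the 15 cells and Epcam at 160.3 CPM, against 78.1 in the 190. The keratinocyte markers of the 15 cells summed to 9763 CPM, against 3177 in the 190.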
